A study of Mus musculus with 8 samples.

Results

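Complement is a cascade of plasma and tissue proteins that is started by antibody complexes, by microbial sugars or by slow spontaneous turnover, and that converges on cleavage of C3. C1q recognises targets, and of its partner proteases C1r and C1s it is C1s that cleaves C4 and C2. C3 together with factor B forms the convertase that amplifies the response, while factor I inactivates the fragments and C5 opens the terminal steps. Liver makes most of the plasma pool, but epithelium, fibroblasts, fat and macrophages also make components locally, C1q being mainly a macrophage product.

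Described here are 9 complement components, C3, C2, C1qa, C1qb, C1s, Cfi, Cfb, C4a and Hc (the gene for C5), found as the 12 probes that carry those names on a 1-colour Agilent whole mouse genome array. Of the 9, 8 were among the 16330 genes tested. C3 was chosen because it was the single gene called between day 3 tumour and untreated tumour, and the other components were chosen to stand beside it. That comparison is therefore given below without a test, and C3's differences from the untreated tumours, which share those arrays, are also given as a description.

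The 8 arrays held RNA from normal salivary glands of mice and from AKT-induced tumours of these glands, AKT being the kinase through which PI3K signals to mTOR. The groups were untreated tumour (n = 2), tumour given rapamycin, an inhibitor of the mTOR kinase, for 3 days (n = 1) or for 14 days (n = 2), untreated parotid gland (n = 2) and untreated submandibular gland (n = 1). Strain, age, the promoter that drives AKT, the dose of rapamycin and the number of animals behind each group are not given in the sources used here, so p-values measure only the spread between these samples, which may be technical. Both day 14 arrays held Xist (−2.10 and −2.40) together with Y-linked transcripts (means of 0.70 and 0.45), whereas every other array held 1 of the 2 kinds of signal, so whether the day 14 arrays hold pooled RNA and are independent is uncertain and was not tested. All levels below are log2 signals relative to the 75th percentile of the same array, so that 0 is the level of a probe at that percentile. Between 43.2% and 58.4% of spots were well above background on an array, no spot was saturated, and the number of arrays limited the precision. The 10 gland acinar marker genes, which check the tissue labels, averaged 7.19 and 8.03 in parotid gland, 2.34 in submandibular gland, −2.15 and 0.76 in untreated tumour, 0.30 at day 3 and 7.75 and 7.94 at day 14.

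The upstream sequence of 4 of the 9 components (C3, C1s, C1qb and Hc) was in the RefSeq promoter table used, on GRCm38.p6. The 3 windows below are shown because the first pair belongs to components that were low in untreated tumour and the last to one that was not. Each is the 250 bases before the start site, written 5′ to 3′ on the minus strand, and capitals mark a match to the C/EBP motif TTGCNNAA, a site type of the acute-phase response.

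C3, chr17:57228137-57228386: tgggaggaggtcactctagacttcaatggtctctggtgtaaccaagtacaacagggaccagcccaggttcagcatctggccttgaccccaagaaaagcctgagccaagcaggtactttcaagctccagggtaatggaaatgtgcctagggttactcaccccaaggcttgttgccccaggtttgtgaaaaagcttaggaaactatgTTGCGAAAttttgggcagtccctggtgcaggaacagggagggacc
C1s (C1s1 in RefSeq), chr6:124542360-124542609: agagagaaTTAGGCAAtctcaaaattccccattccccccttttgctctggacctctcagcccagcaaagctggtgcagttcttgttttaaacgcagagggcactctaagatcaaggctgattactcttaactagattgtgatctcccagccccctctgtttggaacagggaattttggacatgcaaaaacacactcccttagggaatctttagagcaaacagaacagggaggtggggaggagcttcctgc
C1qb, chr4:136886201-136886450: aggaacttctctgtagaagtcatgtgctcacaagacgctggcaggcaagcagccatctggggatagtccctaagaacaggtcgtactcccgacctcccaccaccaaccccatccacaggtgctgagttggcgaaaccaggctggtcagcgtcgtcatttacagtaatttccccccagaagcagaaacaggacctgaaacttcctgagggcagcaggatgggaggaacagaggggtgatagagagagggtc

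In C3 the match TTGCGAAA lay at −45 to −38 from the start site. In C1s the match was on the other strand, TTAGGCAA, at −242 to −235 from the first of 2 listed start sites, and the window of the second start site held none. C1qb and Hc held no match to that motif. Of all 32851 promoter windows of this length, 9.56% held one on either strand, so a match in 2 components is only a description. The same 4 components held no match to the FOXO motif TGTTTAC (3.17% of windows), the GAS motif TTCNNNGAA (7.02%), the ISRE motif (2.98%) or the kappaB motif (7.25%), and Hc alone held the TATA box TATAAA (12.4% of windows). N stands for any base, and a hit to one can overlap a hit to another.

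C3, the protein on which all routes of activation converge, was read by a probe on chromosome 17 at 56889328 to 56889387 of mm8 (minus strand), the build named in the files. The probe was printed 10 times on each array, with a standard deviation over those spots of 0.0477 to 0.0813 on the log2 scale. The C3 level was 0.24 and −0.05 in untreated tumour, 4.31 at day 3, 5.85 and 5.74 at day 14, 6.96 and 6.96 in parotid gland and 5.95 in submandibular gland. Untreated tumour was thus the lowest group and parotid gland the highest, and no replicated groups overlapped. Untreated tumours were lower than parotid gland by a log2 difference of −6.87 ± 0.20 (117-fold; ± is the standard error in all differences), and day 14 tumours were higher than untreated tumours by 5.70 ± 0.20 (52.1-fold). A second C3 probe, at 56910450 to 56910607, was not well above background on any array and gave no level.

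The day 14 level of C3 did not reach that of parotid gland. Neither mean of this comparison uses the arrays that chose C3, although its standard error is pooled over all 8 arrays and so includes them. Day 14 was lower by −1.17 ± 0.20 (limma adjusted p = 0.0228, higher in both parotid arrays than in both day 14 arrays). Fitted on the 4 arrays compared alone, the adjusted p was 0.0895 and the call was lost. Within slide 1 the difference was −1.11 and within slide 2 it was −1.22, each of 1 array against 1. The call was lost when either day 14 array was left out, as were the calls of all other genes in this comparison. Such a fit leaves 1 array in the group, and the C3 difference stayed between −1.22 and −1.11. The submandibular level stood beside that of day 14 tumour, with a day 14 minus submandibular difference of −0.16 ± 0.25 (adjusted p = 0.727), and lay below parotid gland by −1.01 ± 0.25 (adjusted p = 0.0997). Leaving out parotid replicate 1 or 2, which leaves 1 array against 1, kept the latter difference at −1.01, while calls over the whole array rose.

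**Figure D1:**
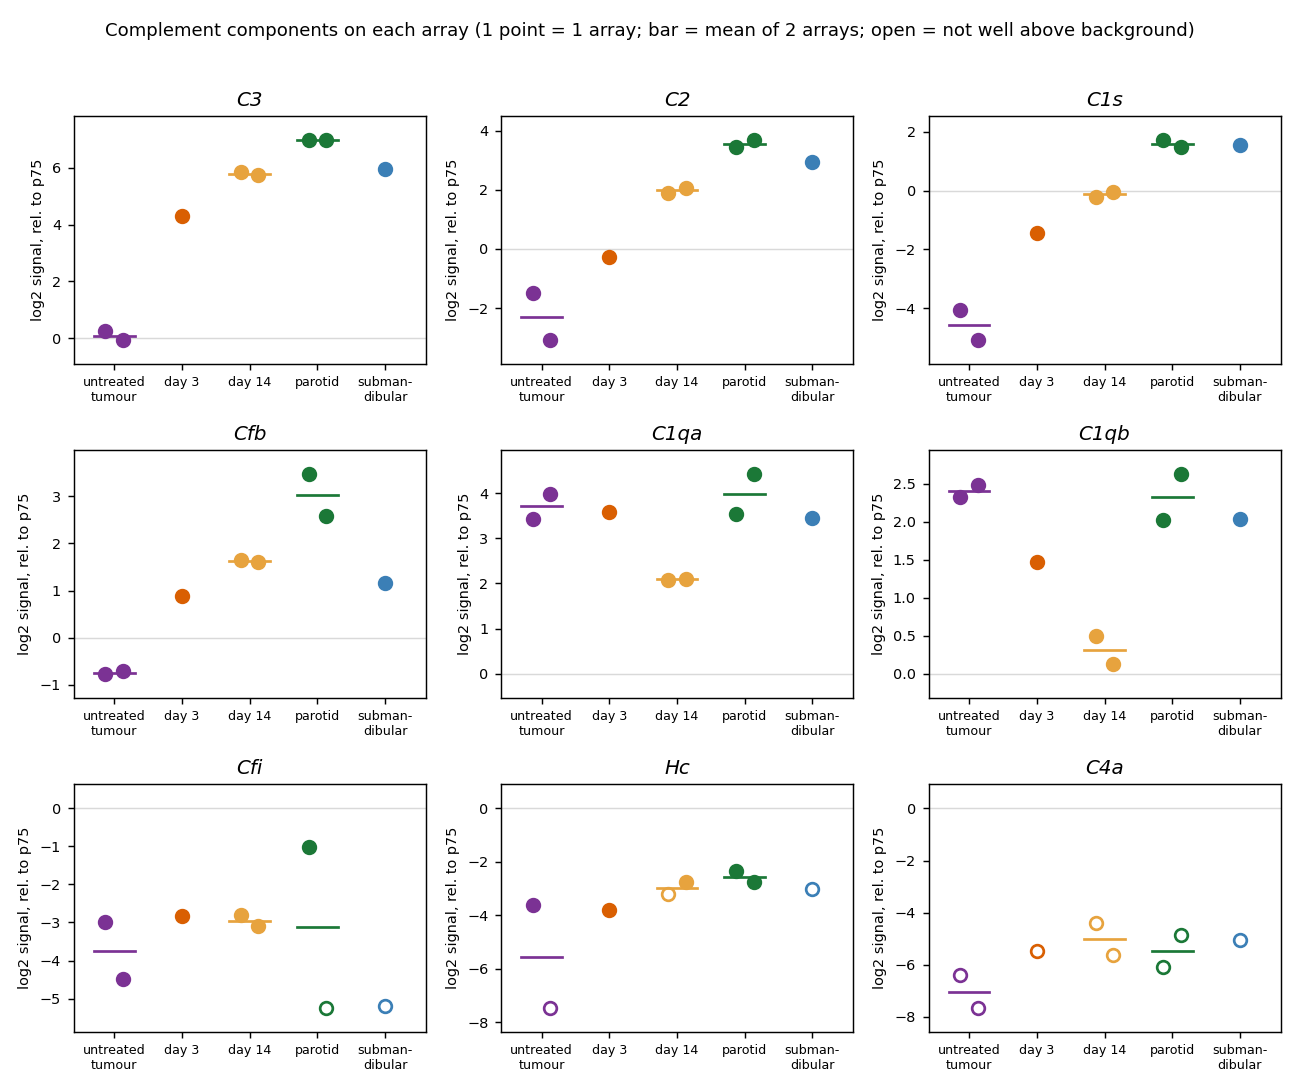
Level of each component on each of the 8 arrays, as the log2 signal relative to the array's 75th percentile (y axis, scaled to each gene), for the 5 groups along the x axis; 1 point is 1 array, bars are means of 2 arrays and open points were not well above background. C3, C2, C1s and Cfb are lowest in untreated tumour, C1qa and C1qb are lowest at day 14, and C4a has open points only.

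Factor B (Cfb), which pairs with C3b to form the alternative-pathway convertase, followed the same order among tumours. Its level was −0.77 and −0.72 in untreated tumour, 0.88 at day 3, 1.64 and 1.62 at day 14, 3.46 and 2.57 in parotid gland and 1.17 in submandibular gland. The replicates were close in both tumour groups and wider apart in parotid gland, and none of these 3 groups overlapped. Cfb was −3.76 ± 0.32 lower in untreated tumour than in parotid gland (limma adjusted p = 0.000524) and 2.37 ± 0.32 higher at day 14 than in untreated tumour (adjusted p = 0.00212). At day 14 it was still −1.39 ± 0.32 below parotid gland (adjusted p = 0.0437).

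C2, the protease cut by C1s to form the classical convertase, is the gene beside Cfb, and the probes of the pair lie 5.72 kb apart on chromosome 17. The C2 level was −1.50 and −3.08 in untreated tumour, −0.28 at day 3, 1.89 and 2.07 at day 14, 3.46 and 3.68 in parotid gland and 2.94 in submandibular gland. All tumour arrays lay below all gland arrays, and the untreated tumours differed more from each other than any other replicates of C2. C2 fell by 5.86 ± 0.49 on the log2 scale in untreated tumour against parotid gland (limma adjusted p = 0.00052) and was 4.27 ± 0.49 higher at day 14 than in untreated tumour (adjusted p = 0.00126). Without untreated tumour replicate 1 these differences were −6.65 and 5.06, and without replicate 2 they were −5.07 and 3.49, with every adjusted p under the threshold of 0.05. A second C2 probe, dimmer on every array, gave differences of −5.33 and 3.42. The day 14 minus parotid difference of −1.59 ± 0.49 missed the threshold (adjusted p = 0.0861).

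C1s is the protease of the C1 complex that cleaves C4 and C2. Its level was −4.07 and −5.07 in untreated tumour, −1.45 at day 3, −0.20 and −0.04 at day 14, 1.71 and 1.47 in parotid gland and 1.56 in submandibular gland. The groups were again separate, with the submandibular array between the parotid arrays. C1s was −6.15 ± 0.39 lower in untreated tumour than in parotid gland (limma adjusted p = 0.000238), 4.44 ± 0.39 higher at day 14 than in untreated tumour (adjusted p = 0.000568) and −1.71 ± 0.39 below parotid gland at day 14 (adjusted p = 0.0437). A second C1s probe was well above background on 4 of 8 arrays, those of the glands and day 14 replicate 2. It gave −5.67 and 3.58 for the first pair of comparisons. The size of both is uncertain, since its values in untreated tumour (−6.50 and −7.43) and on day 14 replicate 1 (−3.87) were not well above background. Mouse has a near-identical copy, C1s2, whose own probe was well above background on 1 array, so signal shared between the copies makes the C1s level uncertain.

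C1qa and C1qb, which encode chains of the recognition protein C1q, did not follow C3. The C1qa level was 3.44 and 3.98 in untreated tumour, 3.58 at day 3, 2.08 and 2.10 at day 14, 3.53 and 4.41 in parotid gland and 3.46 in submandibular gland. The C1qb level was 2.32 and 2.48 in untreated tumour, 1.46 at day 3, 0.49 and 0.13 at day 14, 2.02 and 2.62 in parotid gland and 2.04 in submandibular gland. For both genes the day 14 arrays were the lowest of all 8, while untreated tumour and parotid gland overlapped. The untreated tumour minus parotid difference was −0.26 ± 0.34 for C1qa (limma adjusted p = 0.573) and 0.08 ± 0.27 for C1qb (adjusted p = 0.841). From untreated tumour to day 14, C1qa fell by 1.62 ± 0.34 on the log2 scale (adjusted p = 0.0105) and C1qb fell by 2.09 ± 0.27 (adjusted p = 0.00198). The C1qa call was lost without untreated tumour replicate 2 (adjusted p = 0.0713) and without day 14 replicate 1 (0.0718) or replicate 2 (0.0666). Against parotid gland, day 14 was lower by −1.88 ± 0.34 for C1qa (adjusted p = 0.0256) and by −2.01 ± 0.27 for C1qb (adjusted p = 0.0131).

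Cfi, Hc and C4a were dim. Factor I (Cfi), the protease that inactivates C3b and C4b, was well above background on 6 of 8 arrays, with levels of −3.00 and −4.50 in untreated tumour, −2.83 at day 3 and −2.81 and −3.08 at day 14. In parotid gland Cfi was at −1.02 on 1 array and not well above background on the other (−5.24), nor in submandibular gland (−5.20), and the groups overlapped. Its untreated tumour minus parotid difference was −0.62 ± 1.32 (limma adjusted p = 0.737), and on slide 1, where both arrays were well above background, the day 14 minus parotid difference was −1.80. Hc, whose product C5 opens the terminal pathway, was well above background on 5 arrays: 1 of 2 untreated tumours (−3.62), the day 3 array (−3.80), 1 of 2 at day 14 (−2.74) and both parotid arrays (−2.35 and −2.77). It was not called in untreated tumour against parotid gland (−2.99 ± 1.16, adjusted p = 0.0857), where 1 of the untreated values was not well above background. Hc entered the tests only through the parotid and day 3 groups, where every array was well above background, so this result is a description. C4a was not well above background on any array and was not tested.

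Read over the members, 4 of 8 (C3, C2, C1s and Cfb) were called lower in untreated tumour than in parotid gland and 0 higher, where limma called 20.3% of all genes lower and 18.7% higher (39% in either direction). The median difference of the members was −3.37, beside 0.02 over all genes. Between day 14 and untreated tumour, 4 of 8 were called higher (the same 4 genes) and 2 lower (C1qa and C1qb), where 24.3% of all genes were called higher and 23.5% lower (47.7% in either direction), with a median of 2.47 beside 0.02. Between day 14 and parotid gland, 5 of 8 (C3, C1qa, C1qb, C1s and Cfb) were called lower and 0 higher, where 5.07% of all genes were called lower and 6.25% higher (11.3% in either direction), with a median of −1.49 beside −0.02. With either day 14 array left out, calls in this last comparison were lost over the whole array and not only among members. Such a fit leaves 1 array in that group. Without replicate 1 or 2 the differences were −1.87 or −1.89 for C1qa, −2.19 or −1.83 for C1qb, −1.63 or −1.79 for C1s and −1.40 or −1.38 for Cfb. With the replicate number as a block 3 of 8 (C3, C1qa and C1qb) were called, beside 1117 of all 16330 genes. There C1s (adjusted p = 0.0648) and Cfb (0.0632) missed the threshold. C3 is counted in the comparisons with untreated tumour as a description only. These comparisons share arrays, so that the first and second both rest on the untreated tumours. Counts here were made on members that passed the filter on dim probes. Hc passed it only through parotid gland and day 3, and the counts and medians include it.

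**Figure D2:**
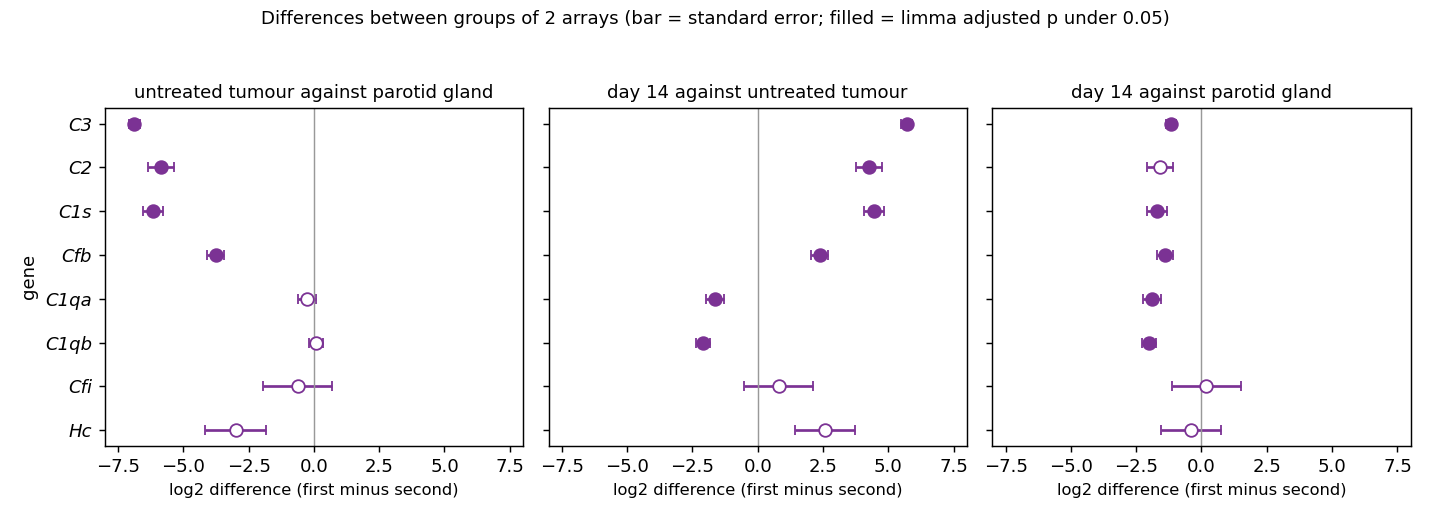
Log2 difference (x axis, first group minus second, with its standard error) of each tested component in 3 comparisons of 2 arrays against 2; filled points have a limma adjusted p under 0.05. The same 4 genes lie far left in untreated tumour against parotid gland and far right in day 14 against untreated tumour, while C1qa and C1qb lie left of 0 in both comparisons of day 14.

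The submandibular gland gave a second normal reference, of 1 array whose spread was assumed to equal that of the replicated groups. Against it, untreated tumour was lower for C3 (−5.86 ± 0.25), C2 (−5.23 ± 0.60, limma adjusted p = 0.00219), C1s (−6.13 ± 0.48, adjusted p = 0.000649) and Cfb (−1.91 ± 0.39, adjusted p = 0.0147), which made 4 of 8 members, where 15.2% of all genes were called lower and 14.3% higher (29.4% in either direction). The Cfb call was lost with either untreated tumour left out (adjusted p = 0.063 without replicate 1 and 0.0585 without replicate 2). The C2 difference was −6.02 without replicate 1 and −4.44 without replicate 2. The submandibular array was on slide 2 and both untreated tumours on slide 1, so no slide held both groups. With slide as a fixed block, calls over all genes fell in this comparison. Between day 14 and submandibular gland, C1qb alone was called lower (−1.73 ± 0.34, adjusted p = 0.033), where 3.26% of all genes were lower and 5.62% higher (8.87% in either direction). Without day 14 replicate 1 or 2, nearly all calls of this comparison were lost, that of C1qb among them. The C1qb difference was then −1.91 or −1.55, each of 1 array against 1. Between the normal glands limma called 0 of 8 members and 2.34% of all genes (1.36% higher and 0.98% lower in submandibular gland), and 2 members (C3 and Cfb) had an unadjusted p under 0.05. The submandibular minus parotid difference of Cfb was −1.85 ± 0.39 (adjusted p = 0.0724).

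At day 3 the levels of the members lay between those of untreated tumour and day 14 for C3, C2, C1s and Cfb. These differences chose C3 and are given without a test: limma called 1 of all 16330 genes (0.00612%). The day 3 minus untreated difference was 4.21 for C3 (18.6-fold), 3.12 for C1s, 2.01 for C2, 1.62 for Cfb, 1.74 for Hc, 0.91 for Cfi, −0.13 for C1qa and −0.94 for C1qb. Both untreated tumours were on slide 1 and the day 3 array on slide 2, so slide and treatment cannot be told apart here. The day 3 array also had 846 spots called non-uniform or outliers, against 68 to 132 on the other arrays. C3 was the member inside the threshold of that call, and C1s had the next largest difference outside it. Differences of the same sign and larger than that of C3 were seen in 0.404% of all genes, and larger than that of C1s in 1.01%. The single day 3 array gives no spread of its own.

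The remaining complement genes were counted from a list of 43 further components, regulators and receptors, of which 27 were tested. In untreated tumour against parotid gland 2 were called higher and 16 lower (median −1.90), beside 18.7% and 20.3% of all genes. At day 14 against untreated tumour 10 were called higher and 3 lower (median 1.21), beside 24.3% and 23.5%, and at day 14 against parotid gland 0 higher and 4 lower (median −0.84), beside 6.25% and 5.07%. Some passed the filter on dim probes only through a group where they were high, Cr2 and C3ar1 among them, so these counts are a description. C1ra, which encodes C1r, the partner of C1s, lies 7.72 kb from it by probe position. Its level was −3.89 and −4.36 in untreated tumour, −1.05 at day 3, −0.12 and 0.22 at day 14, 1.21 and 1.06 in parotid gland and 0.88 in submandibular gland. Its level was the most like C3's among the 9737 genes ranked, those that cleared background on each of the 8 arrays and had no clone-type name (Pearson r = 0.993 over 8 arrays). C1ra was named for that likeness and for the size of its difference from parotid gland, so its differences are given without a test. It was −5.26 ± 0.31 lower in untreated tumour than in parotid gland and 4.18 ± 0.31 higher at day 14 than in untreated tumour. A second, dimmer probe carried the same name, C1r, but lies at 124540910 to 124540969, 43.8 kb beyond C1s, while the first lies at 124488653 to 124488712 on its other side. It may thus read another gene, and its values are not taken as those of C1ra. The second probe was well above background in the 3 gland arrays only, at −1.45 and −1.37 in parotid gland and −1.19 in submandibular gland. In the tumours its values, not well above background, were −5.46 and −5.58 untreated, −4.10 at day 3 and −5.42 and −4.11 at day 14. No probe named for the near-identical copy C1rb was used here, so the C1ra signal may include it. Which copy each of the C1r probes reads was not tested.

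The next genes most like C3 were Dpf3 (r = 0.981), Tcp11l2 (0.98), Ly6c1 (0.978) and Larp6 (0.978). Of the members, C1s had r = 0.976 with C3, C2 had 0.96 and Cfb 0.933, while C1qa had −0.20 and C1qb −0.33. C1qa and C1qb had r = 0.939 with each other, and C2 and C1s had 0.985. These values describe the order of the 8 arrays, which share their groups and slides.

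Cfd, factor D, cleaves factor B and is abundant in fat. Its level was −0.79 and −7.00 in untreated tumour, the lower value not well above background, 4.72 at day 3, 5.85 and 5.73 at day 14, 4.39 and 6.72 in parotid gland and 3.62 in submandibular gland. The difference was −9.45 ± 1.88 for untreated tumour against parotid gland and 9.68 ± 1.88 for day 14 against untreated tumour. Cfd passed the filter on dim probes only through groups other than untreated tumour, so no test is given. The untreated replicates set the size: without replicate 2 the differences were −6.34 and 6.58. Without replicate 1 the untreated value left was not well above background, and Cfd was at least 2283-fold lower than in parotid gland and at least 2689-fold higher at day 14. Without parotid replicate 1 or 2 the first was −10.61 or −8.29. Without day 14 replicate 1 or 2 the second was 9.62 or 9.74.

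C1qc, the third chain of C1q, lies between C1qb and C1qa, with probes 9.13 kb and 6.58 kb away on chromosome 4. Its level was 4.11 and 4.66 in untreated tumour, 4.06 at day 3, 2.53 and 2.81 at day 14, 4.13 and 4.49 in parotid gland and 3.66 in submandibular gland. As for C1qa and C1qb, the day 14 arrays were the lowest and untreated tumour overlapped parotid gland (0.08 ± 0.27, limma adjusted p = 0.832). C1qc was −1.71 ± 0.27 lower at day 14 than in untreated tumour (adjusted p = 0.00358). Against parotid gland day 14 was −1.63 ± 0.27 lower (adjusted p = 0.0202). Without day 14 replicate 1 or 2 the latter was −1.49 or −1.77, and its call was lost with those of all other genes.

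C4b, which encodes the C4 cleaved by C1s, was at 2.36 and 1.16 in untreated tumour, 3.62 at day 3, 1.20 and 1.49 at day 14, 2.49 and 3.28 in parotid gland and 0.62 in submandibular gland. Its day 3 level was the highest of all arrays and the submandibular level the lowest. It was called neither in untreated tumour against parotid gland (−1.12 ± 0.45, limma adjusted p = 0.0951) nor at day 14 against untreated tumour (−0.42 ± 0.45, adjusted p = 0.468), although the first was called without untreated tumour replicate 1 (adjusted p = 0.0417) or parotid replicate 1 (0.0327). C4a and C4b are near-identical copies with probes 92.5 kb apart, so their levels may be mixed.

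Among the fluid-phase and membrane regulators, several followed C3 and others did not. Serping1, the inhibitor of C1r and C1s, was −2.99 ± 0.50 lower in untreated tumour than in parotid gland (limma adjusted p = 0.00571), −3.79 without untreated tumour replicate 1 and −2.20 without replicate 2. Its day 14 minus untreated difference of 1.34 ± 0.50 was not called (adjusted p = 0.0681). It was called without untreated tumour replicate 1 (2.14, adjusted p = 0.0102) and was 0.55 without replicate 2 (adjusted p = 0.28).

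Vtn (vitronectin, which blocks the terminal complex) and Cd55 (which breaks up convertases on cell surfaces) were not well above background in either untreated tumour. A fold against such a group is a bound, taken against the higher of the gene's own signal and the lowest signal of any probe well above background on that array. Both genes were named for the size of their called differences. They passed the filter on dim probes only through groups other than untreated tumour, so no test is given. Vtn was at least 68.6-fold lower in untreated tumour than in parotid gland and at least 42.3-fold higher at day 14 than in untreated tumour. Cd55 was at least 29.0-fold lower and at least 21.0-fold higher in the same comparisons. With 1 array left out these bounds ran from 46.3 to 102 and from 35.9 to 49.8 for Vtn. For Cd55 they ran from 15.2 (without parotid replicate 1) to 55.4 (without parotid replicate 2) and from 18.0 to 24.5. The bound of 46.3 for Vtn was without parotid replicate 1 and that of 102 without parotid replicate 2. Clusterin (Clu), a further inhibitor of the terminal complex, went the other way and was named here after its values were seen. Its level was 6.38 and 6.83 in untreated tumour, 6.71 at day 3, 3.73 and 3.40 at day 14, 3.84 and 3.02 in parotid gland and 1.00 in submandibular gland. Clu was 3.18 ± 0.33 higher in untreated tumour than in parotid gland. At day 14 Clu was −3.04 ± 0.33 lower than in untreated tumour. Because Clu was picked on its values, no test is given.

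Of the receptors, Cr2, which binds C3 fragments on B cells and follicular dendritic cells, was well above background on both day 14 arrays (0.00 and −0.27) and on parotid replicate 1 (0.70), and on no other array. It was at least 37.6-fold higher at day 14 than in untreated tumour, given without a test because Cr2 passed the filter on dim probes only through its day 14 arrays. C3ar1, the receptor of the C3a fragment, was well above background only in the untreated tumours (−2.74 and −2.80) and at day 3 (−2.43). It was at least 1.62-fold lower at day 14 than in untreated tumour, also without a test, since it passed the filter only through the untreated and day 3 tumours.

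**Figure D3:**
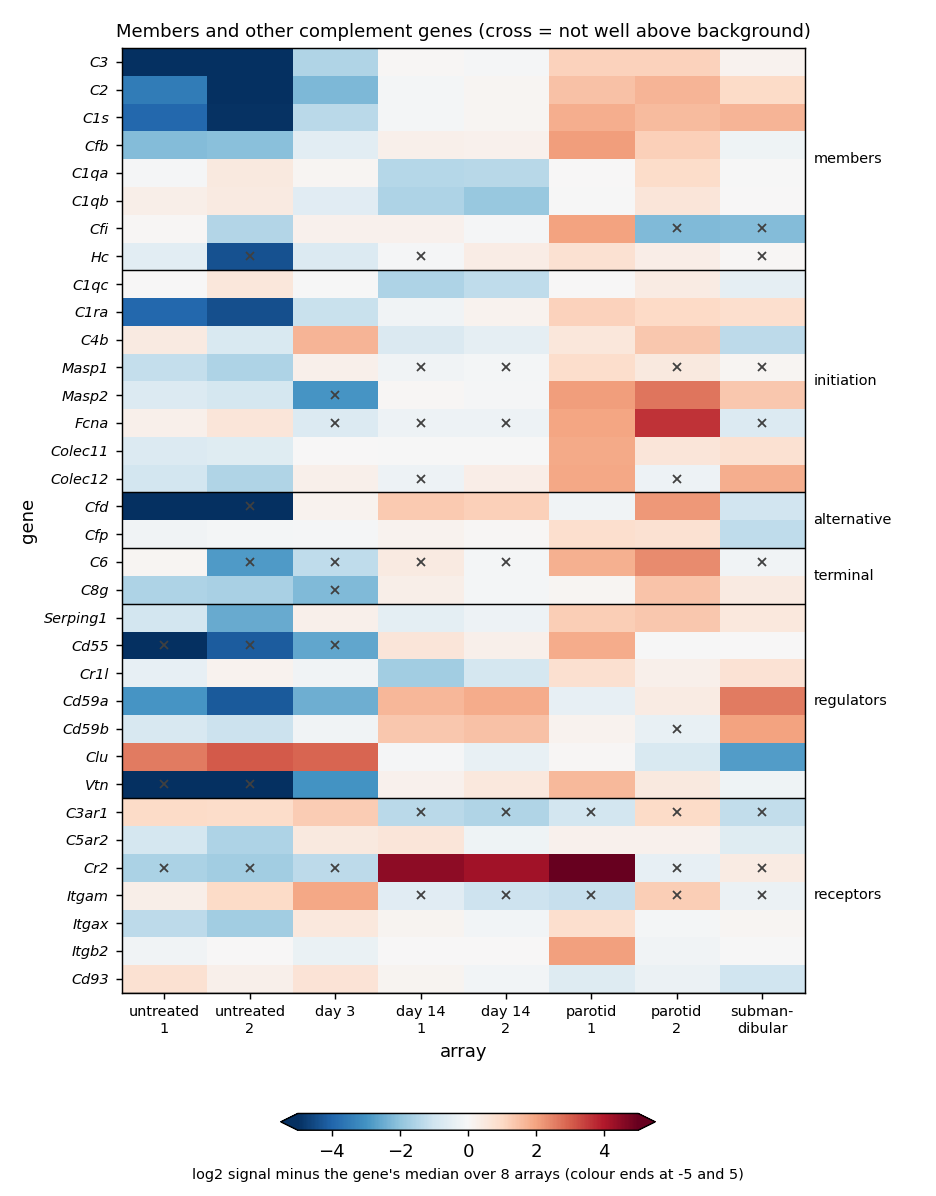
Level of the 8 tested components and 26 other complement genes (rows, grouped by role) on each array (columns), as the log2 signal minus the gene's median over the 8 arrays, with colours ending at −5 and 5 and a cross where no probe of the gene was well above background. C3, C2, C1s, C1ra, Cfd, Vtn and Cd55 are darkest blue in the untreated tumours, Clu is red in the untreated and day 3 tumours, and the C1q genes are bluest in the day 14 tumours.

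In bulk tissue, fewer cells of a type and less RNA per cell cannot be told apart, so lists of cell type markers are given beside these results. The 6 tested adipocyte genes averaged −3.03 and −4.88 in untreated tumour, 1.33 at day 3, 2.83 and 2.79 at day 14, 0.90 and 2.78 in parotid gland and −0.13 in submandibular gland. Plin1 and Retn of that list were not well above background in either untreated tumour. At day 14 against untreated tumour 6 of 6 adipocyte genes were called higher, and at day 3 all 6 had a positive difference (median 6.49, no test). In the parotid arrays C3 was at 6.96 and 6.96, beside these adipocyte means of 0.90 and 2.78. Of 10 gland acinar genes, 10 were called lower in untreated tumour than in parotid gland and 10 higher at day 14 than in untreated tumour.

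The 10 fibroblast genes averaged 2.11 and 0.62 in untreated tumour, 2.62 at day 3, 2.05 and 2.02 at day 14, 2.77 and 2.86 in parotid gland and 2.54 in submandibular gland, with 1 called higher and 3 lower in untreated tumour against parotid gland. The 7 epithelial genes had 4 called higher and 0 lower in that comparison, and 1 higher and 5 lower at day 14 against untreated tumour (median −1.49). The 14 acute-phase and NF-kappaB genes all had a positive day 3 minus untreated difference (median 1.58, no test), and they averaged 1.22 at day 3 against −1.06 and −0.87 in untreated tumour and −0.47 and −0.56 at day 14. The 14 interferon-response genes averaged 0.61 at day 3, within the range of 0.03 to 0.78 of the untreated tumours. In untreated tumour against parotid gland, neutrophil markers had 2 called higher and 0 lower of 5 tested, endothelial 0 and 2 of 7, T cell 0 and 5 of 7, B and plasma cell 0 and 4 of 6 and muscle 0 and 2 of 7. At day 14 against untreated tumour the same lists had 0 higher and 2 lower, 3 and 0, 5 and 0, 6 and 0, and 7 and 0. Over all genes 18.7% were called higher and 20.3% lower in the first comparison, and 24.3% and 23.5% in the second. The muscle genes averaged 6.03 and 6.25 at day 14, and −4.26 and 2.77 in parotid replicates 1 and 2. The B and plasma cell genes averaged 2.81 and 3.01 at day 14, and 3.53 and −0.48 in parotid replicates 1 and 2. The T cell genes averaged 0.11 and 0.37 at day 14, and 2.18 and −2.06 in those parotid arrays. The part of each list in the C3 pattern was not tested.

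For C1qa and C1qb the list of interest is that of macrophages and other myeloid cells, in which C1q is mainly made. Its 12 genes averaged 1.52 and 1.89 in untreated tumour, 2.12 at day 3, 1.97 and 2.00 at day 14, 2.89 and 2.81 in parotid gland and 2.29 in submandibular gland. The list mean was thus not lowest at day 14, but its genes differed in direction. At day 14 against untreated tumour 5 had a positive and 7 a negative difference (median −0.32). Against parotid gland 1 was positive and 11 were negative (median −0.99). The mean also takes in Cd163, at −5.57 and not well above background in untreated tumour replicate 1. At day 14 against untreated tumour 3 of 12 were called higher and 3 lower, close to the shares of 24.3% and 23.5% over all genes. The genes called are all named, after their values were seen. Lower was Adgre1, which encodes the macrophage marker F4/80 (−1.97 ± 0.30, limma adjusted p = 0.00336), with levels of 2.09 and 2.48 in untreated tumour, 1.64 at day 3 and 0.31 and 0.32 at day 14. Cd68, a lysosomal macrophage protein (−2.95 ± 0.28, adjusted p = 0.000701), and Mpeg1, a pore-forming macrophage protein (−1.25 ± 0.28, adjusted p = 0.0132), were also lower. Higher were Cd74, the invariant chain of antigen presentation (3.77 ± 0.45, adjusted p = 0.00145), and Cd14, a receptor for bacterial lipopolysaccharide (1.31 ± 0.32, adjusted p = 0.0175). The third gene counted as higher was Cd163, a haemoglobin scavenger receptor of macrophages (5.25 ± 0.55, well above background on 1 of 2 untreated arrays). Cd163 passed the filter on dim probes only through groups other than untreated tumour, so its place in the count is a description and no test is given. Day 14 against parotid gland gave 1 of 12 called higher (Cd14) and 4 lower (Adgre1, Cd68, Lyz2 and Tyrobp), beside 6.25% and 5.07% of all genes. Adgre1 was lower by −2.21 ± 0.30 (adjusted p = 0.0131) and Cd68 by −1.81 ± 0.28 (adjusted p = 0.0182), and Cd14 was higher by 1.37 ± 0.32 (adjusted p = 0.0465). The part of macrophage number in the C1q values was not tested.

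**Figure D4:**
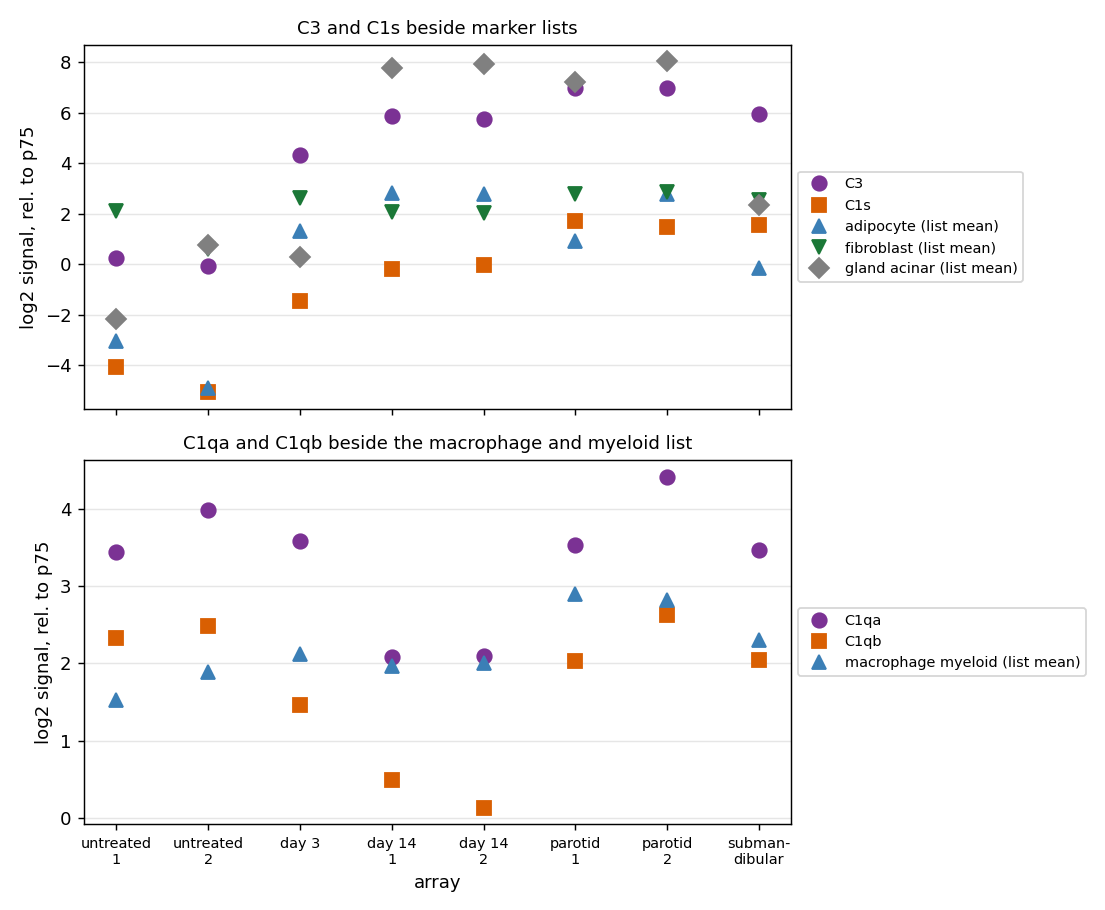
Top, the levels of C3 and C1s beside the mean levels of the adipocyte, fibroblast and gland acinar lists; bottom, C1qa and C1qb beside the mean of the macrophage and myeloid list; all as log2 signals relative to the array's 75th percentile, with the 8 arrays along the x axis. C3 and the adipocyte mean are both lowest in the untreated tumours, the acinar mean is highest in the day 14 and parotid arrays, and C1qa and C1qb are lowest at day 14 while the macrophage list mean is lowest in untreated tumour replicate 1.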

How the data were processed

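Feature Extraction 10.7.3.1 gave, per the file headers, the deposited intensity of each spot, background-subtracted and not scaled between arrays. Probe positions are on mm8, per the file headers. The deposited log2 value table of the authors, whose scaling is unstated (column medians of 5.52 to 5.57), was an alternative only. Here log2 intensity minus each array's 75th percentile was used, without control spots and spots called non-uniform or outliers. Probes had to be well above background in all arrays of 1 or more groups, and the brightest probe stood for a gene (16330 genes). The fit was limma 3.58.1 in R 4.3.3, with 5 group means over 8 arrays, an intensity trend, 3 residual and 3.29 prior degrees of freedom, and two-sided Benjamini-Hochberg p-values over all genes of each of 6 comparisons, threshold 0.05. It was checked on simulated data. The members, lists and naming rule were chosen with earlier results of these data known. Beyond the members, the rule named Cfd, C4b, C1qc, Serping1 and C3ar1, the 4 largest called complement genes in each of 2 comparisons, up to 2 genes a marker list, and the 5 genes most like C3. A further gene that it names is not reported here, for a reason unrelated to its values. Neutrophil, endothelial, lymphocyte and muscle marker lists were also counted. On slide 1 were replicate 1 of parotid and of day 14 with the untreated tumours, on slide 2 the rest.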

Additional observations from a re-analysis of the deposited data

How the results depend on the processing

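Processing and left-out arrays were varied for all 6 comparisons. Of 644 values of single members, 574 kept their direction and their side of the threshold, 29 lost and 20 gained a call, and 21 changed sign, none of them called. The members called were 4 or 5 in untreated tumour against parotid gland, 5 to 7 in day 14 against untreated tumour and 3 or 4 in untreated tumour against submandibular gland in every setting run. The 5 called in day 14 against parotid gland were 3 with the deposited log2 values, without the intensity trend, with the replicate block or with only the arrays compared. Over all genes these settings called 2050, 1495, 1117 and 690, beside 1848 in the main fit. Fewer members were called on slide 1 alone, which holds 1 array of each group compared, although calls over all genes did not fall. The slide 1 differences were −1.11 for C3, −1.45 for C1qa, −1.53 for C1qb, −1.91 for C1s and −1.82 for Cfb. With 1 array left out, calls over the whole array fell without a day 14 array and rose without a parotid array. C3 there was −0.91 (limma adjusted p = 0.0507) with the deposited values, −1.11 (0.0513) on slide 1 alone and −1.17 (0.0895) with only the arrays compared, and −1.22 to −1.11 with 1 array left out. In day 14 against submandibular gland the count of 1 became 2 with normexp, 0 without the trend or with slide as a fixed block, and 5 with only the arrays compared. Over all genes these settings called 808, 1413, 546 and 6548, beside 1449 in the main fit. With either day 14 array left out nearly all calls of that comparison were lost. In submandibular against parotid gland, leaving out a parotid array raised the calls of members and of all genes, while the C3 difference stayed at −1.01. The cause was not tested.

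Signs changed in uncalled values, of which those of Cfi and Hc rest in part on arrays where the gene was not well above background. For untreated tumour against parotid gland, Cfi was 0.081 with quantile normalization, C1qa was 0.18 on slide 1 alone, and with 1 array left out C1qa ran from −0.71 to 0.18, C1qb from −0.22 to 0.38 and Cfi from −2.73 to 1.5. For day 14 against parotid gland, Cfi was −0.30 with normexp, −1.80 on slide 1 alone and −1.93 to 2.30 with 1 array left out. Against submandibular gland, Cfi of untreated tumour was −0.79 with slide as a fixed block and C1qa was −0.023 to 0.52 with 1 array left out, while Hc of day 14 was −0.35 with quantile normalization, −0.53 with the deposited values and −0.15 to 0.29 with 1 array left out. For submandibular against parotid gland, C1s was 0.0024 with normexp, 0.053 with the probe mean and −0.14 to 0.10 with 1 array left out, as Cfi was −4.18 to 0.042 and C1qb −0.58 to 0.015.

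Replicate numbers of untreated tumour, parotid and day 14 are only numbers: deviations of same-numbered arrays from their group means correlated at 0.0124, 0.138 and −0.0756. The replicate block could not be fitted with the single submandibular array. Without the filter on dim probes, the median of all genes was 1.09 at day 14 against untreated tumour and −0.97 in untreated tumour against parotid gland. Levels near background (Cfi, Hc, C4a) limit what can be seen.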
